A study of Mus musculus with 4 samples.

Results

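The nuclei described here are the 139 that the authors' annotation places in neuronal cluster 63:Ebf2/Th, taken as the nuclei that passed the authors' quality filter and carry this cluster name. They made up 1.11% of the 12539 neuronal nuclei and 0.352% of all 39461 nuclei kept, and the cluster ranked 25th by size among 134 neuronal clusters, whose median was 86.5 nuclei. The tissue was the posterior part of the hindbrain with the area postrema (AP) and the nucleus tractus solitarius (NTS) of adult C57BL/6 mice of both sexes, 12 to 20 weeks old, from which nuclei were sorted and sequenced as 4 libraries. All mice had received the ligand clozapine-*N*-oxide (CNO) at 3 mg per kg intraperitoneally 1 h before death, in the absence of food. AgRP-Gq;POMC-Gi mice were heterozygous for AgRP-IRES-Cre and for POMC-Dre (each +/-) and carried hM3DGq fl/- and hM4DGi fl/-, so that CNO activates AgRP neurons through one receptor and inhibits POMC neurons through the other. AgRP neurons lie in the arcuate nucleus of the hypothalamus, and POMC neurons lie there and, in smaller number, in the NTS. The labels call the controls wild type, whereas the methods describe offspring of the same cross that carry both receptor alleles without either recombinase. Each group gave 2 libraries of pooled tissue, and which mice went into which library is not stated, so p-values between groups measure the spread between libraries, which may not be that between mice.

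Catecholamines are made in steps. Tyrosine hydroxylase (*Th*) turns tyrosine into L-DOPA, aromatic amino acid decarboxylase (*Ddc*) turns L-DOPA into dopamine, dopamine β-hydroxylase (*Dbh*) makes noradrenaline from it and *Pnmt* makes adrenaline, while the vesicular transporter *Slc18a2* loads the product into vesicles. The NTS holds the noradrenergic A2 neurons, and a *Th* transcript alone does not show which transmitter a neuron releases. *Ebf2* encodes a transcription factor of the early B cell factor family that acts in neuronal differentiation, and *Tnfaip8l3* encodes a protein that transfers phosphoinositides.

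The promoters of *Th* and of the neuropeptide gene *Nts*, both at their highest neuronal level in cluster 63, and that of *Dbh*, which had no UMI there, are given to show the letters that stand before these transcripts. Each is 300 bases long, from 250 bases before to 50 bases after the start of the gene in RefSeq (GRCm38.p6), written 5′ to 3′ on the strand of the gene. Capitals mark a cAMP response element (TGACGTCA), an AP-1 site (TGACTCA) or the core TGACG of the cAMP response element, each searched on both strands, and the core lies within the whole element. The *Th* promoter lies at chr7:142899946-142900245 on the minus strand, that of *Nts* at chr10:102490369-102490668 on the minus strand and that of *Dbh* at chr2:27165257-27165556 on the plus strand.
Th: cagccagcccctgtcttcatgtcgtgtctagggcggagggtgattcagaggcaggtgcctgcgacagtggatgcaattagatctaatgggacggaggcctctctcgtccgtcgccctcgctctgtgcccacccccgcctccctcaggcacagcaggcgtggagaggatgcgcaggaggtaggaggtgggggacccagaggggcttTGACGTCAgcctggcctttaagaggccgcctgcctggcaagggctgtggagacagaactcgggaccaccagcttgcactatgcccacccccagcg
Nts: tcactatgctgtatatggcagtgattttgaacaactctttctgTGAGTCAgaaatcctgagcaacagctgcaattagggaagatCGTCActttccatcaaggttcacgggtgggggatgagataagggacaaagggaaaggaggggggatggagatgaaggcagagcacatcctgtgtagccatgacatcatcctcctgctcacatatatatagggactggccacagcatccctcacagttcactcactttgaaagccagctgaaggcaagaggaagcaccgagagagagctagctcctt
Dbh: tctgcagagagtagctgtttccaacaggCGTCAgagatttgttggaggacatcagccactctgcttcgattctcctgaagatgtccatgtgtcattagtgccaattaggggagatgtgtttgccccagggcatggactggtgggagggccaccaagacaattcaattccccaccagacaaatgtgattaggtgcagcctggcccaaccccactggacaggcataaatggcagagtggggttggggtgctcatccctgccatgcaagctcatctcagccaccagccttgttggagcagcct
The *Th* promoter held a whole cAMP response element, and 1.88% of 27025 mouse promoters of this length held one. The AP-1 site of the *Nts* promoter, written here as its reverse complement, was shared by 5.17% of promoters. Of the 25 genes that led the cluster, 18 had a promoter in the table, and the whole cAMP response element was found in 1 of them (*Th*), the AP-1 site in 1 (*Nts*) the core in 5 (*Bcl2*, *Casz1*, *Th*, *Nts* and *Kcnh8*), against 21.0% of all promoters, and the EBF motif TCCCNNGGGA in 0, against 0.914%. *Ebf2* had no entry. A match describes letters in this window and no bound factor.

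The 4 libraries contributed unequally. Control replicates 1 and 2 held 34 and 17 nuclei of the cluster with 255412 and 133357 UMIs (unique molecular identifiers, each standing for 1 counted transcript). AgRP-Gq;POMC-Gi replicates 1 and 2 held 17 and 71 nuclei with 93435 and 473936 UMIs, so AgRP-Gq;POMC-Gi replicate 2 alone gave 51.1% of the nuclei. The median nucleus had 6283 UMIs and 2740 genes, against 8735.5 UMIs and 3577 genes in the other 12400 neurons, and members ranged from 1681 to 22091 UMIs. None of the 139 barcodes occurred in another library. Markers of other cell types are given as summed counts per 1e6 UMIs (CPM). Oligodendrocyte markers summed to 266, 285, 942 and 194 CPM in control replicates 1 and 2 and AgRP-Gq;POMC-Gi replicates 1 and 2, against 149 to 329 CPM in other neurons, with *St18* alone at 214 CPM in AgRP-Gq;POMC-Gi replicate 1. Vascular and choroid markers followed *Ttr*, a choroid plexus transcript, which stood at 0, 1417, 0 and 673 CPM and moved with the library in the other neurons as well. Microglia markers summed to 192, 142, 128 and 177 CPM in the members, against 139 to 154 CPM in other neurons. Of the markers, 3 of 4 of oligodendrocyte precursors, 4 of 5 of microglia and 5 of 6 of vessels and choroid had a UMI. Those without were *Cspg4*, *Tmem119* and *Pdgfrb*. The neuron markers *Rbfox3*, *Snap25*, *Syt1* and *Meg3* were found in 87.8 to 100% of the nuclei, whereas *Elavl4*, an RNA-binding protein of neurons, was found in 30.2% against 74.0% of other neurons.

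The genes that set the nuclei apart from other neurons are given as a description, since the clusters were made from the same counts. The UMIs of a gene were summed per library, and the ratio is the mean CPM of the 4 libraries in cluster 63 over that in the other neurons, each with 10 CPM added. A gene was called higher or lower where this ratio was at least 2 or at most 0.5 and the 4 values of cluster 63 did not overlap with the 4 of the other neurons. Of 12373 genes found in 5% or more of either set of nuclei, 315 were higher (2.55%) and 504 were lower (4.07%), and the median ratio was 0.923.

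*Ebf2* and *Th*, the genes in the name of the cluster, and *Tnfaip8l3* were all higher. *Ebf2* (chromosome 14, 67233292 to 67430918) stood at 740 and 990 CPM in controls and at 1060 and 1070 CPM in AgRP-Gq;POMC-Gi mice, and between 53.2 and 74.8 CPM in other neurons. It was found in 92.1% of the members against 15.6% of other neurons, and 4 other neuronal clusters exceeded its level here. *Th* stood at 62.6, 112, 128 and 124 CPM in the same order of libraries, and between 2.09 and 3.62 CPM in other neurons. *Th* was found in 46.8% of the members (95% interval 38.3 to 55.4), in 1.77% of other neurons and in 0.0476% of oligodendrocytes, which should lack it and had a median of 2460 UMIs. With every nucleus thinned to 2000 UMIs, which left out 2 members, the shares were 20.4% and 0.466%. No other neuronal cluster reached the mean level of *Th* here, and the next was cluster 76 with 67.2 CPM. *Tnfaip8l3* stood at 94.0, 90.0, 128 and 141 CPM against 1.28 to 3.10 CPM, and no other neuronal cluster reached even 0.5 times its mean. The interval given for a share covers counting error only.

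**Figure D1:**
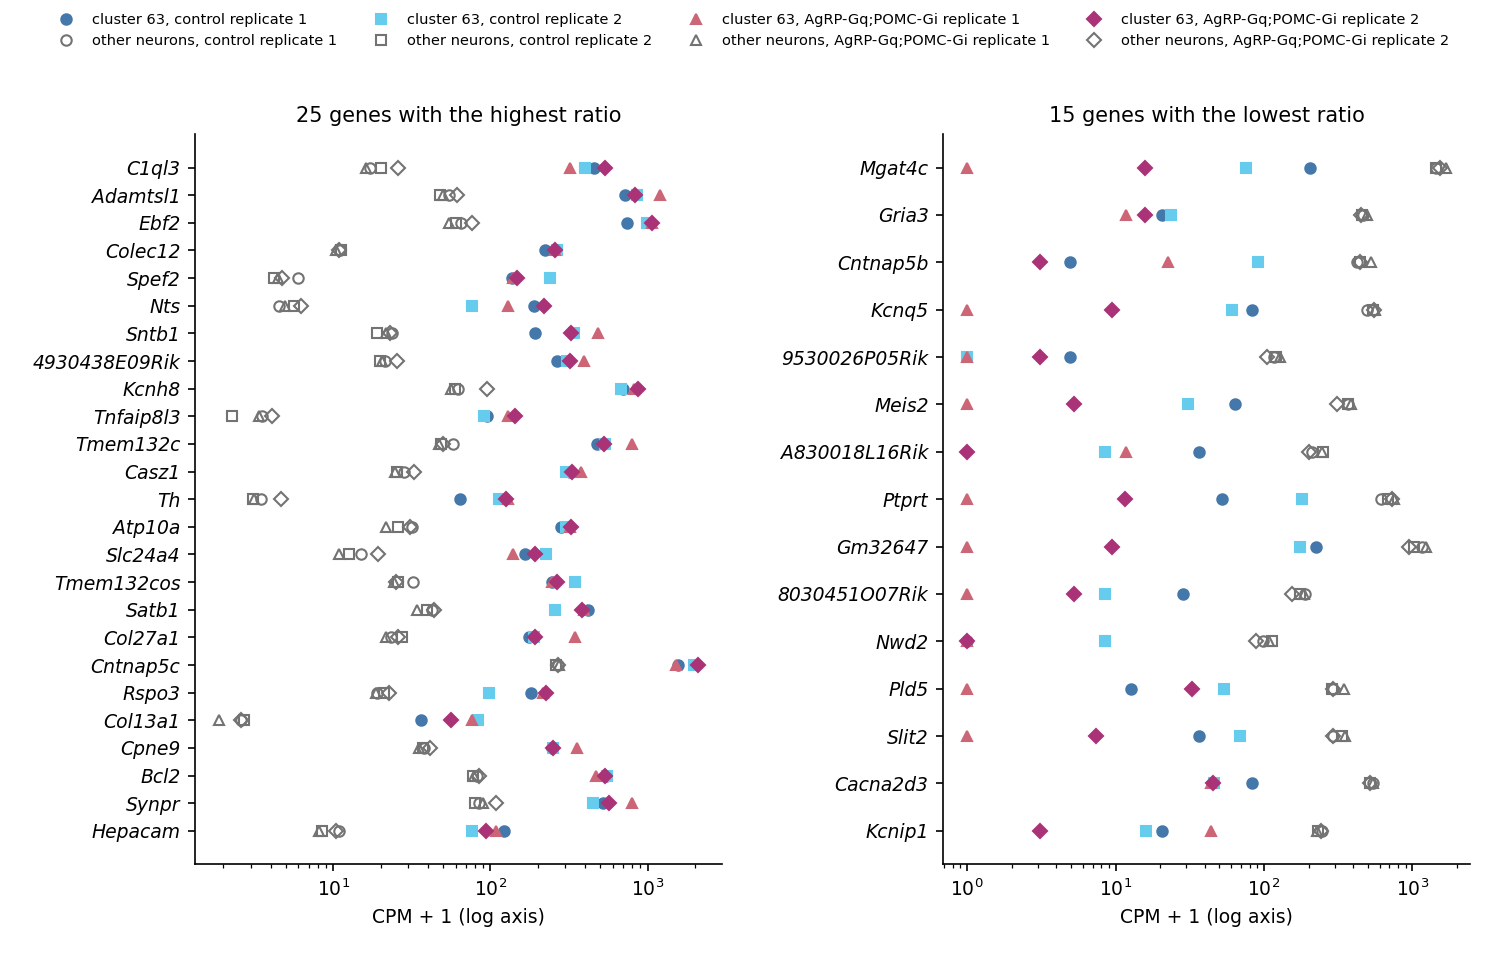
Counts per 1e6 UMIs, plus 1 and on a log axis, of the 25 genes with the highest and the 15 genes with the lowest ratio in cluster 63, each symbol being 1 library, filled for cluster 63 and open for all other neurons. In both panels the filled symbols of a gene lie apart from its open symbols, and those of the lowest genes scatter more widely between libraries.

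With 10 CPM added the highest ratio belonged to *C1ql3*, which encodes a secreted synapse organizer of the C1q family, with 454, 397, 321 and 534 CPM against 15.2 to 24.8 CPM and a ratio of 15.2. *C1ql3* was found in 84.9% of the members and 10.1% of other neurons. With 1 CPM added *Tnfaip8l3* (34.5), *Spef2* (34.4) and *Th* (30.2) had the highest ratios, so the order of the leading genes depends on this setting. The 25 also held *Adamtsl1* (ratio 14.6), *Rspo3*, an amplifier of Wnt signalling (6.44), and the collagens *Col27a1* (6.97) and *Col13a1* (6.28). *Nts*, the gene of the peptide neurotensin, stood at 188, 75.0, 128 and 217 CPM against 3.50 to 5.26 CPM, with a ratio of 11.3, and was found in 46.8% of the members and 3.02% of other neurons. Its level was the highest of all neuronal clusters, followed by the cluster Rxfp1/Ebf2 with 98.0 CPM. The transcription factors *Casz1* (9.31) and *Satb1* (7.58), the potassium channel *Kcnh8* (10.0), the vesicle protein *Synpr* (5.93) and the survival factor *Bcl2* (5.98) also belonged to the 25. *Hepacam*, an adhesion protein known from glia, stood at 121, 75.0, 107 and 92.8 CPM against 7.10 to 9.85 CPM in other neurons, with a ratio of 5.91, while astrocyte markers summed to 53.5 to 142 CPM in the members and 117 to 150 CPM in other neurons. *Hepacam* and *Adamtsl1* were also found in 58.3% and 46.9% of oligodendrocytes, and their part in these 2 ratios was not tested. The remaining genes of the 25 were *Colec12*, *Spef2*, *Sntb1*, *4930438E09Rik*, *Tmem132c*, *Tmem132cos*, *Atp10a*, *Slc24a4*, *Cntnap5c* and *Cpne9*, with ratios from 6.07 to 13.0.

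The 3 minus-strand transcripts that lie wholly within *Ebf2*, a gene of the plus strand, were higher together with it. *4930438E09Rik* (67332042 to 67397742) was found in 73.4% of the members with a ratio of 10.8, *1700120O09Rik* (67324894 to 67335928) in 39.6% with a ratio of 5.66, and *Gm6878* (67304888 to 67314711) in 25.9% with a ratio of 4.81. *Gm10860* (67427668 to 67437171), which overlaps the end of *Ebf2* on the minus strand, was found in 4.32% with a ratio of 1.51 and was neither higher nor lower. Likewise *Tmem132cos*, named as antisense to *Tmem132c*, was found in 72.7% and *Tmem132c* in 86.3%. The strand setting of the counting is not given in the sources used here, so whether reads of a gene and its antisense partner were told apart is not known.

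Of the catecholamine genes, *Th* alone was higher. It was 1 of 4 genes of synthesis found in 5% or more of either set of nuclei (25%, against 2.55% of all genes). Of 3 such genes of storage, uptake and breakdown, 0 were higher. *Dbh*, *Pnmt*, the noradrenaline and dopamine transporters *Slc6a2* and *Slc6a3*, the vesicular transporter *Slc18a1* and the degrading enzyme *Maob* had no UMI in any of the 139 nuclei, which allows up to 2.16% of nuclei with a UMI (3 counts of 139) and a level of up to 3.14 CPM, the exact 95% interval reaching 2.62%. This limits the nuclei with a UMI and not those that express the gene. *Ddc* had 2 UMIs in 2 nuclei (1.44%) against 4.86% of other neurons, a share below the 10.2% found in oligodendrocytes. *Slc18a2* was found in 6.47% of the members against 16.8% of other neurons, and in 4.38% against 4.00% after a single random thinning. Its level was 7.52 ± 6.03 CPM against 23.1 ± 3.68 CPM, with a ratio of 0.529 that is not under 0.5. *Gch1*, which makes the cofactor of tyrosine hydroxylase, had 1 UMI. The enzymes of cofactor recycling and breakdown that many cells express, such as *Qdpr* and *Maoa*, had ratios of 1.08 and 1.18. Of 14 transcription factors known from noradrenergic and dopaminergic neurons, 12 had no UMI, as had 15548 of all 32285 genes. Of the 14, only 1 (*Tfap2b*) was found in 5% or more of either set of nuclei, so these zeros say little about the cluster. The number of *Th* UMIs per nucleus was low, with 74 nuclei at 0, 42 at 1, 13 at 2 and 10 at 3 or more, the highest being 5.

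**Figure D2:**
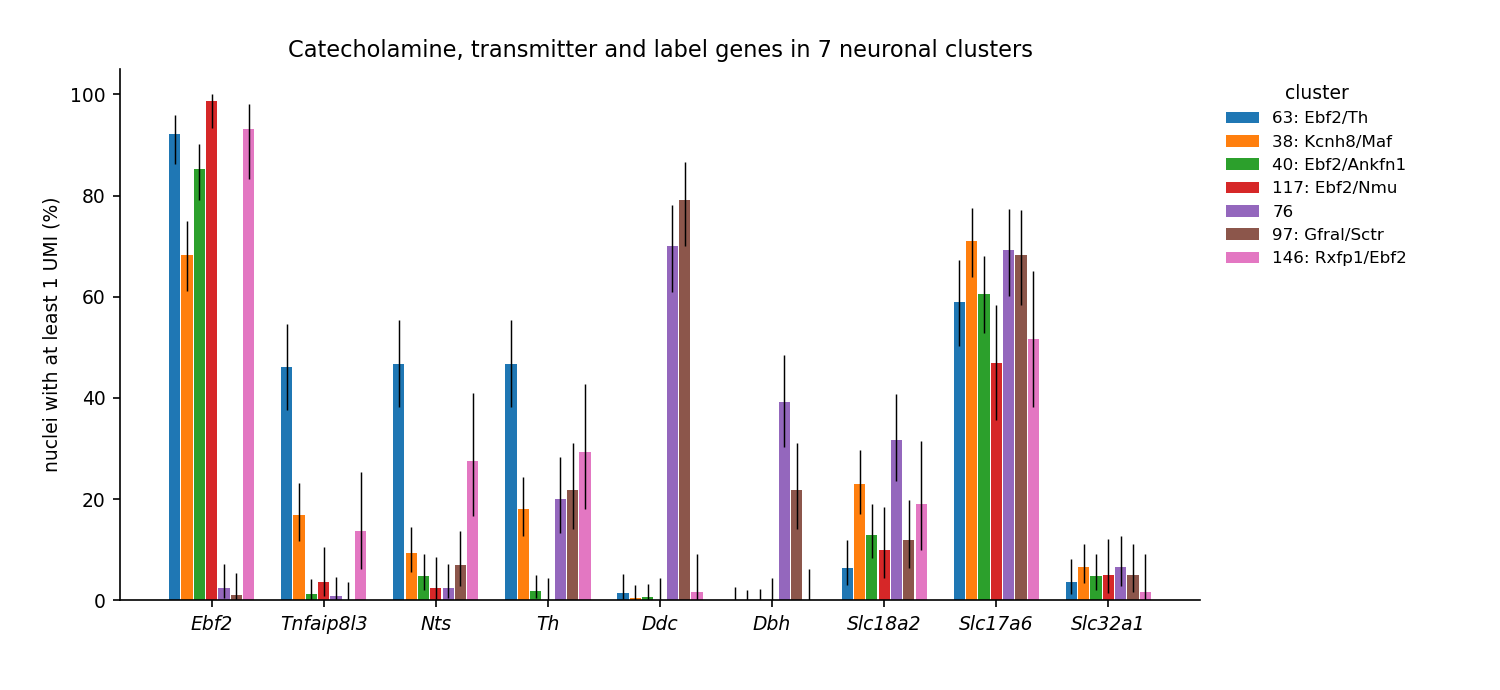
Share of nuclei with at least 1 UMI, in percent, of 9 genes in cluster 63 (blue, left bar of each gene), the 3 neuronal clusters with the most similar expression and 3 further clusters with *Th*, with exact 95% intervals. Bars for *Ddc* and *Dbh* stand in clusters 76 and 97 and are at or near 0 in cluster 63, whose bars for *Tnfaip8l3*, *Nts* and *Th* are the tallest of the 7.

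The members carried the glutamate transporter of vesicles and little of the GABA and glycine genes. *Slc17a6*, the vesicular glutamate transporter VGLUT2, stood at 129, 105, 182 and 148 CPM against 75.5 ± 3.24 CPM (mean ± SD, n = 4 libraries) in other neurons, was found in 59.0% of the members against 35.4%, and had a ratio of 1.77, which is under the minimum of 2. All 5 genes of GABA and glycine release were lower (100%, against 4.07% of all genes). Among them were the vesicular transporter *Slc32a1* (ratio 0.35), the synthetic enzymes *Gad1* (0.23) and *Gad2* (0.17) and the glycine transporter *Slc6a5* (0.19). *Gad2* was found in 5.04% of the members, 38.9% of other neurons and 3.03% of oligodendrocytes. None of 7 genes for the release of acetylcholine, serotonin or histamine passed the 5% minimum.

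Of 33 neuropeptide genes, 16 passed the minimum, 2 were higher (12.5%, against 2.55% of all genes) and 2 were lower (12.5%, against 4.07%). *Nts* is given above, and *Adcyap1*, the gene of the peptide PACAP, stood at 70.5, 30.0, 53.5 and 110 CPM against 12.1 ± 1.94 CPM and was found in 41.0% of the members. *Cartpt* and *Tac1*, the genes of CART and substance P, were lower with ratios of 0.47 and 0.41. *Penk*, the gene of enkephalin, was found in 26.6% of the members and had a ratio of 1.25.

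Of 35 receptors for feeding and satiety signals, 11 passed the minimum, 0 were higher (against 2.55% of all genes) and 4 were lower (against 4.07%), namely the leptin receptor *Lepr*, with no UMI in the members against 12.8% of other neurons, the serotonin receptor *Htr2c* (16.5% against 65.3%), the orexin receptor *Hcrtr2* (1.44% against 21.7%) and the substance P receptor *Tacr1* (0.719% against 11.5%). Of 34 opioid, adrenergic and other amine receptors, 16 passed the minimum, 3 were higher (18.75%, against 2.55% of all genes) and 5 were lower (31.25%, against 4.07%). The µ-opioid receptor *Oprm1* stood at 278, 240, 278 and 302 CPM against 105 ± 3.99 CPM and was found in 71.2% of the members. The dopamine receptor *Drd2* (82.2, 37.5, 74.9 and 65.4 CPM, ratio 3.64) and the adrenergic receptor *Adra1b* (66.6, 67.5, 64.2 and 82.3 CPM, ratio 2.72) each ranked 3rd among the 134 clusters. Lower were the muscarinic receptor *Chrm3* (0.16), the nicotinic subunit *Chrna7* (0.28), the serotonin receptors *Htr2a* (0.44) and *Htr4* (0.34) and the cannabinoid receptor *Cnr1* (0.37).

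Of 57 transcription factors of hindbrain lineages, 32 passed the minimum, 11 were higher (34.4%, against 2.55% of all genes) and 8 were lower (25%, against 4.07%). *Ebf1* and *Ebf3* were higher with *Ebf2*, *Ebf1* being found in 98.6% of the members at 3021 ± 384 CPM against 510 ± 106 CPM. Some other clusters with *Ebf2* had more of both, as given below. *Lmx1b* (ratio 3.92), *Tlx3* (2.48) and *Prrxl1* (4.45), which mark excitatory neurons of the dorsal hindbrain and spinal cord, were higher, as were *Maf* (3.38), *Zfhx4* (2.47), *Satb1*, *Tshz2* (4.69) and *Tox* (2.28). The lower genes included *Lhx1*, *Pax2* and *Pax8*, which mark inhibitory lineages, with 0, 2 and 1 nuclei with a UMI, and *Meis2*, *Onecut2*, *Zfhx3*, *Tcf4* and *Bcl11a*. Of 27 Hox genes, which record position along the body axis, 11 passed the minimum and *Hoxb4* was higher (ratio 2.54). This is 9.09% of the 11, against 2.55% of all genes.

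Of 49 ion channel genes, 44 passed the minimum, 8 were higher (18.2%, against 2.55% of all genes) and 5 were lower (11.4%, against 4.07%). Potassium channel subunits accounted for 4 of the higher genes, with *Kcnq3* at 1448 ± 98.6 CPM against 496 ± 40.6 CPM, *Kcnh7* at 1977 ± 130 CPM against 702 ± 31.9 CPM, *Kcnd3* (ratio 2.90) and *Kcnh8*. The T-type calcium channels *Cacna1g* (2.68) and *Cacna1h* (2.54), the pacemaker channel *Hcn4* (2.05) and the cation channel *Trpm3* (2.41) were higher as well. *Kcnq5*, a relative of *Kcnq3*, was lower (0.0874), as were *Kcnn3*, *Trpc4*, *Trpc6* and *Piezo2*. The 41 genes of glutamate, GABA and glycine receptors, of which 38 passed the minimum, had 11 higher (28.9%, against 2.55% of all genes) and 8 lower (21.1%, against 4.07%). Within the AMPA receptor the subunits went in opposite directions, *Gria2* being higher (3819 ± 384 CPM against 1216 ± 93.5 CPM, ratio 3.12) and *Gria1* (0.175), *Gria3* (0.0565) and *Gria4* (0.456) lower. *Gria3* had 16 UMIs in 10 members, against 77.3% of other neurons, and its level ranked 133rd of the 134 clusters. The kainate receptor genes *Grik1*, *Grik2* and *Grik3* were lower with ratios of 0.20 to 0.265, whereas the metabotropic receptors *Grm5* (2.14) and *Grm7* (2.13), the NMDA receptor subunit *Grin2a* (2.28), the GABA receptor subunits *Gabra2*, *Gabra4*, *Gabra5* and *Gabrb2* (2.19 to 3.93) and *Glra3* (2.21) were higher. *Grm8* and *Gabrg1* were lower.

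With 10 CPM added the lowest ratio over all genes found in at least 25% of other neurons was that of *Mgat4c*, a glycosyltransferase, with 204, 75.0, 0 and 14.8 CPM against 1429 to 1682 CPM. *Mgat4c* was found in 7.91% of the members and 81.4% of other neurons. The other 14 of the 15 lowest genes, among them the guidance molecule *Slit2*, the calcium channel subunit *Cacna2d3*, the phosphatase *Ptprt* and the non-coding transcript *Gm32647*, had ratios from 0.0565 to 0.122. In most of these genes the few UMIs came from the control libraries, and AgRP-Gq;POMC-Gi replicate 1, the library with the fewest UMIs, had none of 10 of the 15.

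The 3 clusters most like cluster 63 carried *Ebf2*, and clusters 76 and 97, which carry *Dbh*, were less like it. Over 17109 genes with at least 10 CPM in any neuronal cluster, the mean log2(CPM + 10) of cluster 63 correlated best with the clusters Kcnh8/Maf (Pearson's r = 0.958), Ebf2/Ankfn1 (0.937) and Ebf2/Nmu (0.932), against a median of 0.903 over 133 clusters, all of which share the 4 libraries. Of 3 further clusters with *Th*, Rxfp1/Ebf2 came 14th (0.921), cluster 76 was 86th (0.897) and Gfral/Sctr (cluster 97) 109th (0.883). Clusters not named for *Ebf2*, among them Lhx9/Vwc2l (0.929) and Tafa2/Pde1a (0.928), came before Rxfp1/Ebf2. *Th* was found in 46.8% of nuclei of cluster 63, 29.3% of Rxfp1/Ebf2, 21.8% of Gfral/Sctr, 20.0% of cluster 76, 18.0% of Kcnh8/Maf, 1.76% of Ebf2/Ankfn1 and 0% of Ebf2/Nmu. At 107 ± 30.3 CPM (SD, n = 4 libraries), its level in cluster 63 was followed by 67.2 ± 35.1 CPM in cluster 76 and 67.0 ± 30.0 CPM in Rxfp1/Ebf2, whose spreads overlap with it, and by 42.2 ± 21.2 CPM in Gfral/Sctr. Within these 7 clusters, *Ddc* and *Dbh* went with cluster 76 and Gfral/Sctr, which had little *Ebf2* and had been chosen for their *Th*. *Ddc* was found in 70.0% of cluster 76 and 79.2% of Gfral/Sctr, against at most 1.72% in the other 5 clusters, and *Dbh* in 39.2% and 21.8% of those clusters and in none of the others. *Ebf2* was found in 68.3 to 98.8% of the 4 clusters Kcnh8/Maf, Ebf2/Ankfn1, Ebf2/Nmu and Rxfp1/Ebf2 and in 2.50% and 0.990% of cluster 76 and Gfral/Sctr. *Slc17a6* was found in 46.9 to 71.0% and *Slc32a1* in at most 6.67% of each of the 7 clusters, so all carried the glutamatergic transporter. *Tnfaip8l3* was found in 46.0% of cluster 63, 16.9% of Kcnh8/Maf, 13.8% of Rxfp1/Ebf2 and at most 3.70% of the remaining clusters. Other transcription factors of cluster 63 were also found in the 4 clusters with *Ebf2*. In Kcnh8/Maf, Ebf2/Ankfn1, Ebf2/Nmu and Rxfp1/Ebf2, *Ebf1* averaged 4096, 1015, 3870 and 6755 CPM, against 3021 CPM here. *Ebf3* averaged 229, 396, 348 and 463 CPM, against 312 CPM. *Lmx1b* averaged 48.9, 61.7, 96.1 and 83.1 CPM, against 89.7 CPM. *Prrxl1* averaged 43.0, 2.41, 89.5 and 89.6 CPM, against 56.5 CPM.

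The leading genes were picked from these same nuclei among genes found in 25% or more of them, so sharing among the members is partly fixed by the choice. The median nucleus had a UMI of 18 of the 25 leading genes, and 5 nuclei had fewer than 10. When each nucleus was compared with the summed profile of every neuronal cluster, leaving its own counts out, 120 of the 139 were fitted best by cluster 63, 14 by Kcnh8/Maf and 5 by other clusters. The clusters were made from the same counts, so this fit is a description and no independent test. Nuclei with and without a *Th* UMI had near shares of some marker genes and different shares of others. *Ebf2* was found in 92.3% of nuclei with *Th* and 91.9% of those without, *Nts* in 46.2% and 47.3%, *Tnfaip8l3* in 47.7% and 44.6% and *Adcyap1* in 41.5% and 40.5%. *Slc17a6* was found in 69.2% and 50.0%, *C1ql3* in 90.8% and 79.7% and *Drd2* in 33.8% and 25.7%, beside a median of 7071 UMIs in nuclei with *Th* and 5949.5 in those without. The share with *Th* rose with depth, from 37.1% in the 35 nuclei with the fewest UMIs to 62.9% in the 35 with the most. *Adcyap1* was found in 52.3% of nuclei with *Nts* and 31.1% of those without, whose median depths were 6353 and 6282.5 UMIs. These shares are given as a description, because nuclei of 1 library are not replicates.

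**Figure D3:**
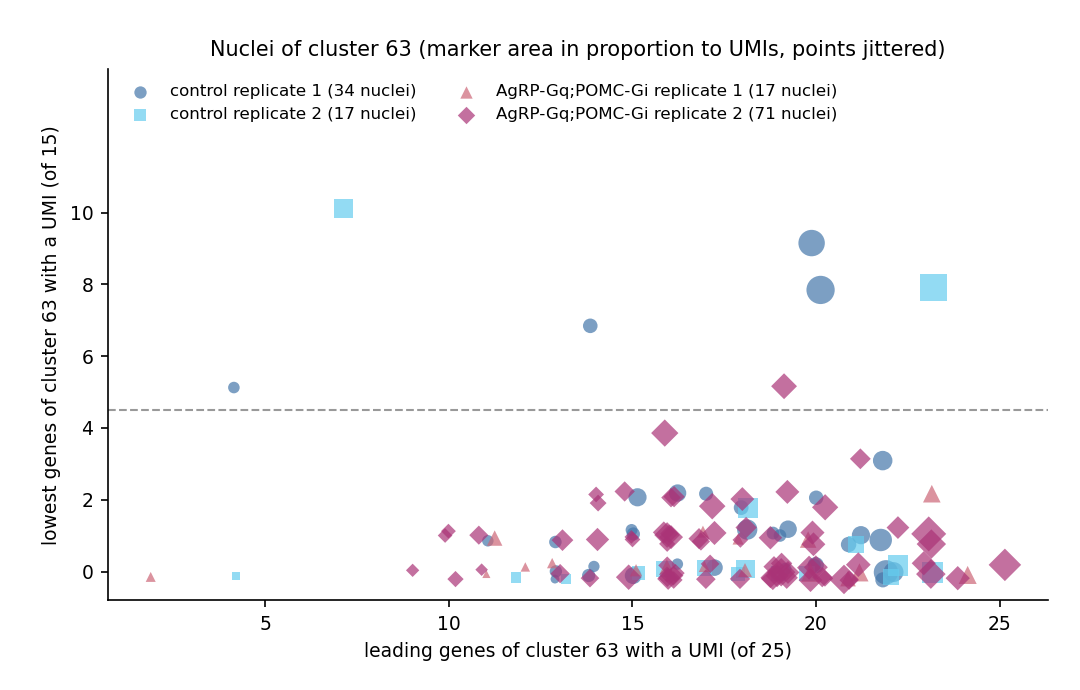
Each point is 1 nucleus of cluster 63, placed by the number of the 25 leading genes (horizontal) and of the 15 lowest genes (vertical) with a UMI, with marker area in proportion to its UMIs and shape and colour for the library. The 7 nuclei above the dashed line have 5 or more of the lowest genes, and 6 of them come from the control libraries.

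The same plot shows a small set of nuclei with several transcripts that were rare in the rest of the cluster. The median nucleus had a UMI of 0 of the 15 lowest genes, while 7 nuclei had 5 or more, namely 4 of control replicate 1, 2 of control replicate 2, 0 of AgRP-Gq;POMC-Gi replicate 1 and 1 of AgRP-Gq;POMC-Gi replicate 2. These 7 nuclei had 3701 to 22091 UMIs with a median of 10257 and a median of 19 of the 25 leading genes, and 5 of them were fitted best by cluster 63. The fit did not use the 15 lowest genes, so it cannot show a difference that lies in them. Genes with the largest variance among members beyond that of counting were found in few nuclei at many copies, headed by *Gm32647*, with up to 51 UMIs in a nucleus, and *Mgat4c*, with up to 40. The authors had removed doublets, and whether these barcodes hold RNA of more than 1 nucleus was not tested.

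The share of neurons that belonged to cluster 63 was 1.38% and 0.621% in controls, and 0.460% and 1.95% in AgRP-Gq;POMC-Gi mice. The groups overlapped, with means of 0.999 ± 0.534% and 1.21 ± 1.06% (SD, n = 2 each). The difference of 0.207 percentage points gave p = 1 in an exact two-sided permutation test, in which 2 libraries against 2 cannot give less than 0.333. Leaving out AgRP-Gq;POMC-Gi replicate 2 turned it to -0.539, and leaving out control replicate 2 turned it to -0.170. The shares of Kcnh8/Maf (1.46%, 1.13%, 0.839% and 2.34%) and Ebf2/Nmu (0.607%, 0.365%, 0.379% and 1.15%) were likewise highest in AgRP-Gq;POMC-Gi replicate 2, whereas that of Ebf2/Ankfn1 (1.17%, 2.05%, 0.893% and 1.43%) was highest in control replicate 2.

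Libraries also differed in sex-linked transcripts, and in control replicate 1 the members differed from the other neurons in this. *Xist*, the female transcript that silences an X chromosome, stood at 1229 and 367 CPM in control members and 535 and 0 CPM in AgRP-Gq;POMC-Gi members. In AgRP-Gq;POMC-Gi replicate 2, 63 of the 71 members had a UMI of a Y-linked gene (*Ddx3y*, *Uty*, *Kdm5d* or *Eif2s3y*) and none of *Xist*, and of the other neurons of that library 62 of 3566 had *Xist* alone. In control replicate 1, 31 of the 34 members had *Xist* and no Y-linked UMI and 0 had the reverse, whereas of its other neurons 1537 had *Xist* alone and 656 a Y-linked gene alone. The members of cluster 63 made up 31 of 1568 neurons with *Xist* alone in that library (1.98%, 95% interval 1.35 to 2.79) and 0 of 656 with a Y-linked gene alone, which allows a share of up to 0.457% as 3 counts and 0.561% as the exact 95% interval. In control replicate 2 the shares were 0.488% of nuclei with *Xist* alone and 0.615% of those with a Y-linked gene alone, and in AgRP-Gq;POMC-Gi replicate 1 they were 0.264% and 0.881%, with overlapping intervals in both. Which mice these nuclei came from is not known, so mouse and sex cannot be told apart.

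**Figure D4:**
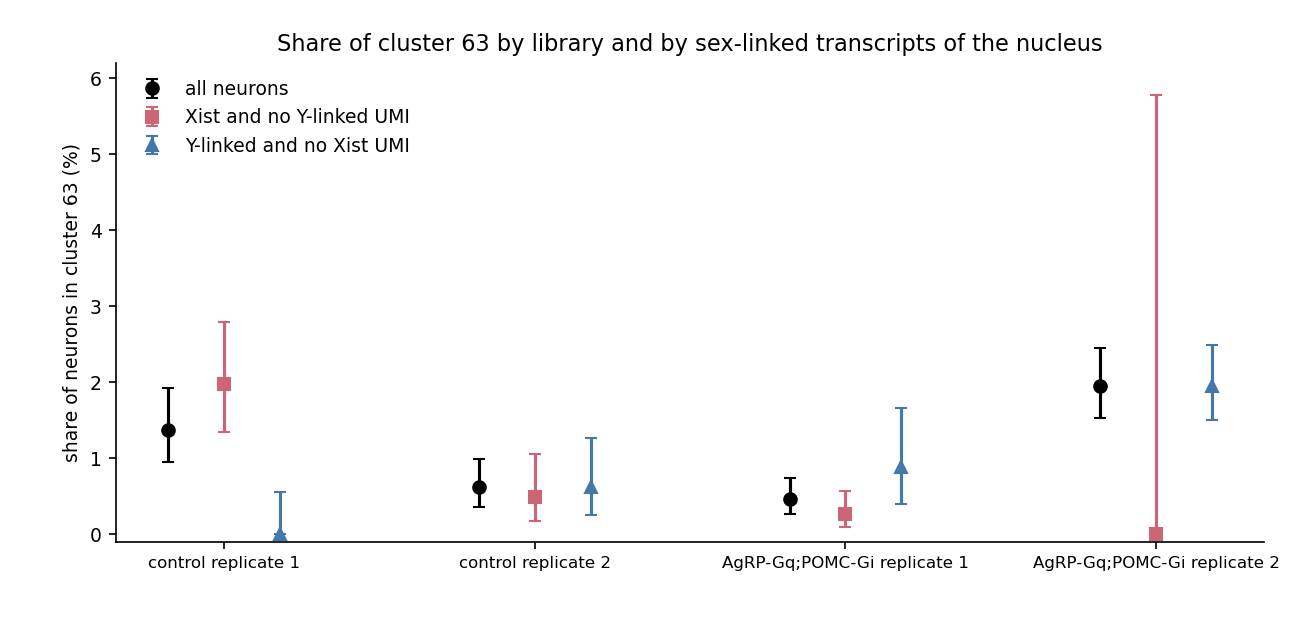
Share of neurons in cluster 63, in percent with exact 95% intervals, for all neurons of each library (circles), for neurons with an *Xist* and no Y-linked UMI (squares) and for neurons with a Y-linked and no *Xist* UMI (triangles). The share among nuclei with *Xist* lies above that among nuclei with a Y-linked gene in control replicate 1, and the wide interval of AgRP-Gq;POMC-Gi replicate 2 rests on 62 neurons.

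The comparison of AgRP-Gq;POMC-Gi with control mice asked which transcripts of these neurons differed between the groups. In control replicates 1 and 2, 31 and 6 members had *Xist* alone and 0 and 7 a Y-linked gene alone. In AgRP-Gq;POMC-Gi replicates 1 and 2 these numbers were 6 and 0, and 9 and 63. Group and sex can therefore not be fully told apart in this comparison. UMIs were summed per library over the nuclei of the cluster and tested with edgeR's quasi-likelihood test over 10613 genes found in 5% or more of the members. At a Benjamini-Hochberg adjusted p under 0.05, 8 genes were called (0.0754%), and 8 of these were lower in AgRP-Gq;POMC-Gi. This count depends on the method, with 1 gene called by DESeq2, 1 with edgeR's filterByExpr and 4 without TMM factors. *Gm32647* stood at 223 and 172 CPM in controls and at 0 and 8.44 CPM in AgRP-Gq;POMC-Gi mice, a log2 difference of -4.76 ± 0.51 (SE, n = 2 libraries each, edgeR adjusted p = 1.33e-05). *Mgat4c*, with 204 and 75.0 against 0 and 14.8 CPM, showed a difference of -3.59 ± 0.56 (edgeR adjusted p = 0.00534). By nucleus, *Gm32647* had 57 and 23 UMIs in 2 and 2 control nuclei against 0 and 4 UMIs in 0 and 4 AgRP-Gq;POMC-Gi nuclei, and *Mgat4c* had 52 and 10 UMIs in 4 and 1 nuclei against 0 and 7 UMIs in 0 and 6 nuclei, so single control nuclei held many copies. The phosphatase *Ptprm* (70.5 and 157 against 10.7 and 6.33 CPM, -3.79), the non-coding *Gm26871* (-3.87), the proteoglycan *Gpc5* (-2.24), *Htr2c* (-2.07), *Ptprt* (-3.47) and *Kcnq5* (-3.31) had edgeR adjusted p-values from 0.0102 to 0.0461. In none of these genes did the 2 groups overlap, which held for 32.8% of all genes tested.

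**Figure D5:**
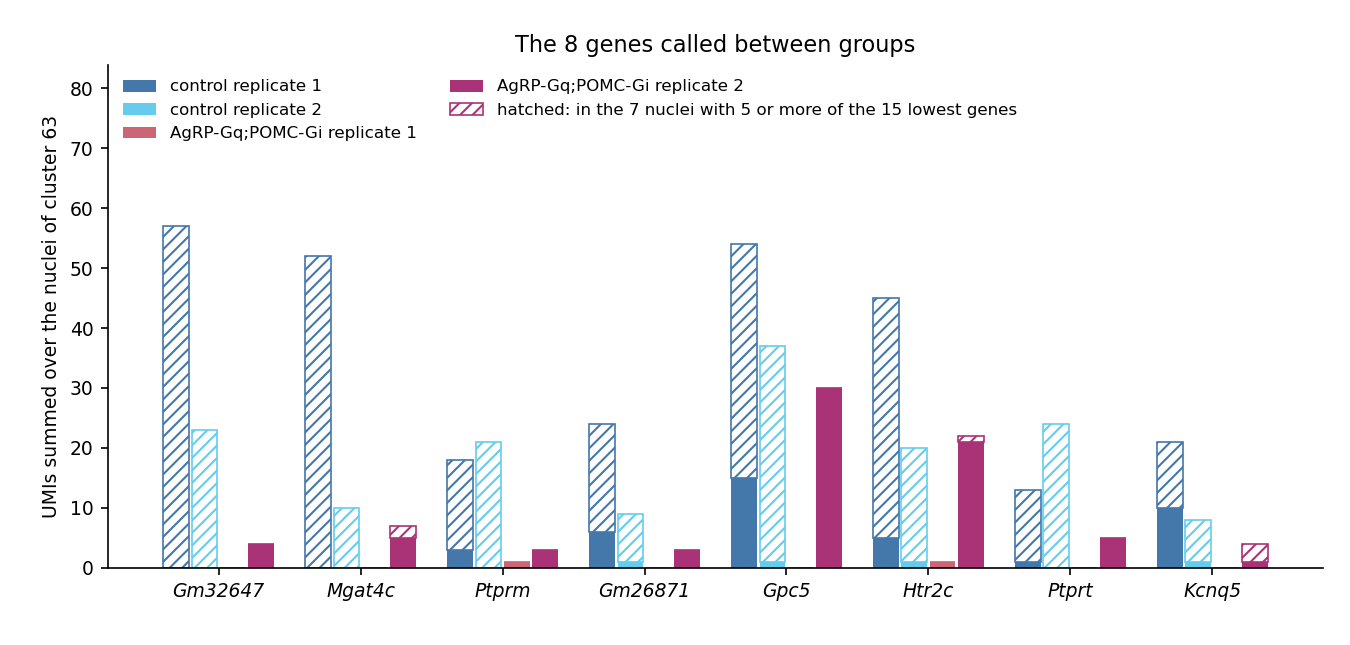
UMIs of the 8 genes lower in AgRP-Gq;POMC-Gi mice, summed over the nuclei of cluster 63 in each library, with the hatched part coming from the 7 nuclei that have 5 or more of the 15 lowest genes. All UMIs of *Gm32647* and *Mgat4c* in the control libraries are hatched.

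These 8 genes were rare in the cluster and rested on few nuclei. They were found in 5.76 to 16.5% of the members, and 4 of them (*Gm32647*, *Mgat4c*, *Ptprt* and *Kcnq5*) belong to the 15 lowest genes described above. Of the 516 UMIs of the 8 genes, 398 (77.1%) lay in the 7 nuclei with 5 or more of the lowest genes, including 80 of the 84 UMIs of *Gm32647*. When these 7 nuclei were left out, a comparison added after the data were seen, none of the 8 genes was called. The nuclei were chosen by the 15 lowest genes, so for the 4 genes among those the loss of UMIs is partly fixed by the choice. *Gm32647* and *Mgat4c* were then left with 0 UMIs in both control libraries and 4 and 5 in AgRP-Gq;POMC-Gi mice, too few for a direction. *Kcnq5* came to -3.90 on 10 and 1 against 0 and 1 UMIs, which rests on control replicate 1, and *Gm26871* to -1.96 on 6 and 1 against 0 and 3 UMIs. *Ptprm* and *Gpc5* came to -0.40 and -0.013, and *Htr2c* and *Ptprt* to 0.94 and 1.31, each with an edgeR adjusted p of 0.996 or more. The gene then called was *Tsix*, the antisense transcript of *Xist* (edgeR adjusted p = 0.00434). Over all members *Tsix* stood at 356 and 157 CPM in controls against 150 and 2.11 CPM, beside the difference in *Xist* given above. In the other neurons edgeR called 0 of the same 10613 genes, with 613 at an unadjusted p under 0.05. The group difference of cluster 63 minus that of the other neurons was called for 7 genes (0.066%), which are the 8 without *Htr2c* (edgeR adjusted p = 0.186). It was called for 0 genes without the 7 nuclei, for 3 without control replicate 1 and for 0 when any other library was left out. The sizes of lost calls did not all shrink. *Kcnq5* was at -4.43 without the 7 nuclei, on the same few UMIs, against -3.54 with them, and *Gm32647* at -4.81 without control replicate 2 (edgeR adjusted p = 0.0512) and at -4.35 without AgRP-Gq;POMC-Gi replicate 1 (edgeR adjusted p = 0.0831), against -4.73 with all libraries.

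The genes that define the cluster are given by their values, since 0 called of 25 is near the share over all genes. Of the 25 leading genes 20 were higher and 5 lower in AgRP-Gq;POMC-Gi, against 5210 higher and 5403 lower of all genes tested, the median log2 difference being 0.19 against -0.01 over all genes tested. *Th* differed by 0.62 ± 0.36, *Ebf2* by 0.31 ± 0.19, *Tnfaip8l3* by 0.57 ± 0.33, *Nts* by 0.41 ± 0.33 and *Slc17a6* by 0.38 ± 0.31 (log2, SE, edgeR adjusted p = 0.995 for each). The 95% interval reached 0.37 to either side for *Ebf2* and 0.71 for *Th*, so that a 2-fold rise lies outside the interval of *Ebf2* and inside that of *Th*. In the other neurons the same genes differed by 0.38 (*Th*), 0.10 (*Ebf2*), 0.58 (*Tnfaip8l3*), 0.23 (*Nts*) and 0.12 (*Slc17a6*). In simulated counts, edgeR called 7% of the genes changed 2-fold and 56% of those changed 4-fold. DESeq2 called 1 and 18 of the 100 genes at each fold. The changed genes were drawn from those above a minimum level, and all genes were given the same dispersion. Recovery of rarer or more variable genes was not measured.

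Immediate early genes are transcripts that neurons make within minutes of firing. Of the 10 that the study scored in these nuclei, 7 passed the 5% minimum here. The study had picked this cluster for its high rank on these same genes in these same libraries, so the values are no independent test. None of the 7 was called (5 higher, 2 lower), and *Nr4a1*, a nuclear receptor, had the smallest unadjusted p. The *Nr4a1* level was 27.4 and 30.0 CPM in controls and 85.6 and 71.7 CPM in AgRP-Gq;POMC-Gi mice, so that the groups did not overlap (log2 difference 1.38 ± 0.49, SE, edgeR adjusted p = 0.995). These levels rest on few UMIs. *Nr4a1* was found in 21.6% of the members, with a mean of 0.381 and up to 8 UMIs in a nucleus. Its variance beyond that of counting ranked 32nd of 4095 genes. By p-value *Nr4a1* ranked 63rd of all genes tested, of which 3.55% had an unadjusted p under 0.05, the threshold by which the study scored these genes. *Nr4a1* was the 1 gene of the 7 past that threshold, in edgeR and in a count model over single nuclei, and it was not past it with DESeq2 or in edgeR without control replicate 1 or without AgRP-Gq;POMC-Gi replicate 2. In the other neurons *Nr4a1* stood at 15.6 and 12.4 against 13.1 and 19.0 CPM, and the test of the difference between cluster 63 and the other neurons gave 1.09 ± 0.56 (log2, SE, edgeR adjusted p = 1.00). Without the 7 nuclei its difference was 1.68. Its mean of 53.7 ± 29.4 CPM over the 4 libraries ranked first among neuronal clusters, with Kcnh8/Maf close behind at 52.3 CPM. *Fos*, with 15.7 and 7.50 against 10.7 and 19.0 CPM, overlapped between the groups, as did *Homer1*, *Btg1*, *Jun*, *Junb* and the host transcript *1700016P03Rik*. A count model fitted to single nuclei, with library as a random effect, gave a log2 difference of 1.62 ± 0.67 (SE) for *Nr4a1*, 0.56 ± 0.94 for *Fos* and 0.58 ± 0.41 for *Homer1*. This model used the same UMIs as edgeR, and its random effect rests on 4 libraries, so it is no independent check. The promoter of *Nr4a1* is shown because its letters can be read against those of *Th* and *Nts* above. It lies at chr15:101266596-101266895 on the plus strand of GRCm38.p6, and capitals mark the core of the cAMP response element, here written as its reverse complement CGTCA.
Nr4a1: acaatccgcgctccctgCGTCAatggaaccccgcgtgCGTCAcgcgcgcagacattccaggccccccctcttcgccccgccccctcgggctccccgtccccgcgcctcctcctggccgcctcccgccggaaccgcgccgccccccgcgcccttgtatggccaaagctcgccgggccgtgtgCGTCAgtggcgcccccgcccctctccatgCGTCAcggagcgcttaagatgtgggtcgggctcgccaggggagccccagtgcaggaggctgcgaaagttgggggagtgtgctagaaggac
It held 4 such cores, and 0.252% of all promoters held as many, against 21.0% with at least 1 and 5.2% with at least 2. The 2 cores of the *Th* promoter are the strands of its 1 whole element.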

How the data were processed

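Nuclei of the posterior hindbrain were sequenced as 4 libraries (10x 3′), 2 per group. The authors counted UMIs with Cell Ranger 7.0.0 on GRCm38 (mm10), and the deposited values are whole-number counts per gene and nucleus. The authors' deposited metadata gave the percent of mitochondrial UMIs, the outcome of the quality filter (minimum UMIs and genes, maximum mitochondrial share, doublets removed) and the cluster names, which were used as given. No doublet caller was run here. The members and lists were chosen with earlier results of these data known.

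Counts were summed per library. Genes were named by a fixed rule, namely the 25 highest and 15 lowest ratios among genes found in 25% or more of the members or of other neurons, list members with a call, the catecholamine and transmitter lists, genes called between groups and 10 immediate early genes. Groups were compared with edgeR 4.0.16 (TMM, quasi-likelihood, R 4.3.3) with Benjamini-Hochberg adjustment, and with a contrast of cluster 63 against other neurons. The mixed model used glmmTMB 1.1.9, and DESeq2 1.42.0 was an alternative. The fits were tested on simulated data. Shares have exact 95% binomial intervals, and a count of 0 allows up to 3 counts, both covering counting error only. Summed depth per library was 93435 to 473936 UMIs. Gene positions came from GENCODE M21 and promoters from RefSeq. Some listed genes are not reported here.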

Additional observations from a re-analysis of the deposited data

Results flagged for a closer look

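For 7 genes the group difference in cluster 63 differed from that in the other neurons by edgeR's test of the difference itself (log2, 2 libraries per group). The difference was -4.73 for *Gm32647* (edgeR adjusted p = 0.000337), -3.78 for *Mgat4c* (edgeR adjusted p = 0.014), -3.79 for *Ptprm* (edgeR adjusted p = 0.0221), -4.15 for *Gm26871* (edgeR adjusted p = 0.014), -2.52 for *Gpc5* (edgeR adjusted p = 0.0307), -3.73 for *Ptprt* (edgeR adjusted p = 0.0452) and -3.54 for *Kcnq5* (edgeR adjusted p = 0.0408). With 1 library left out the test called 3 genes without control replicate 1 and 0 without any other library. All 7 were lower in AgRP-Gq;POMC-Gi members, and in the other neurons none was called. Of the 516 UMIs of these genes and *Htr2c*, 398 lay in 7 nuclei, 6 of them in the control libraries, and with these nuclei left out no gene was called, while *Kcnq5* stood at -4.43 and *Gm26871* at -2.23 on few UMIs. The nuclei were chosen by genes that include 4 of these 7, so that the loss is partly fixed by the choice. Whether these barcodes hold RNA of more than 1 nucleus was not tested.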

How the results depend on the processing

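The 40 genes with the highest or lowest ratio kept their call in every alternative tried. They were chosen for extreme ratios in the same counts, so this was largely fixed by the choice. The number of genes lower in cluster 63 rose from 504 to 1167 with a pseudocount of 1 CPM and fell to 323 against the median of the other clusters. Between groups, the 8 genes became 1 with DESeq2 (29 at an unadjusted p under 0.05), 1 with edgeR's filterByExpr, 4 without TMM factors and 16 without a filter on low counts. Leaving out 1 library gave 6 to 14 genes, with 14 without AgRP-Gq;POMC-Gi replicate 1 (all 8 among them), 11 without control replicate 2 (6 of the 8, 3 genes higher), 9 without AgRP-Gq;POMC-Gi replicate 2 (4 of the 8, 3 higher) and 6 without control replicate 1 (4 of the 8), and 0 to 3 for the contrast with other neurons. *Gm32647* and *Gpc5* were called in all 4.

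The deviations of same-numbered libraries had r = 0.0072 over genes, a single value since 2 libraries mirror each other, while *Ttr* was higher in replicate 2 of both groups. Pairing was not shown. With the replicate block 13 genes were called, including the 8.

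Without the 7 nuclei, an alternative chosen after seeing the data, 1 gene was called between groups and 0 for the contrast. The fitted log2 differences then were 3.74 for *Gm32647* and 4.04 for *Mgat4c*, which rest on controls at 0 UMIs and on the prior count and give no direction, 0.94 for *Htr2c*, 1.31 for *Ptprt*, 0.13 for *Jun*, 0.35 for *Junb* and -0.064 for *Btg1*. Those of the contrast were 9.97 for *Gm32647*, 10.02 for *Mgat4c* and 1.22 for *Ptprt*, the first 2 with the same limit.

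Leaving out 1 library gave log2 differences of -0.30 to 1.17 for *Fos*, -0.34 to 0.75 for *Homer1*, -3.46 to 0.14 for *Jun*, -0.83 to 0.62 for *Junb*, -0.27 to 1.20 for *Btg1* -0.33 to 0.48 for *1700016P03Rik* and 1.3 to 1.5 for *Nr4a1*, and -0.539 to 0.953 percentage points for the share of neurons. Except where stated, the cause was not tested. With 2 libraries per group and 17 nuclei in 2 of them, depth limits the comparison most for rare transcripts.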

Other observations

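Among other activity-related genes, *Scg2*, which encodes a secretory granule protein, was higher in cluster 63 than in other neurons (407 against 134 CPM, ratio 2.90) and *Inhba*, an activin subunit, was lower (ratio 0.442).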
